A study of Danio rerio with 6 samples.

Results

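The subject is the transcriptome of the uninjured adult zebrafish telencephalon at baseline, read from the 3 RNASeq libraries whose titles call them healthy, out of 6 libraries in the series. Each library holds polyadenylated RNA from 1 telencephalic hemisphere, and the libraries are called control replicates 1, 2 and 3. By the methods of the study, these hemispheres lay contralateral to hemispheres that had been injured with a needle days before sampling, so an uninjured hemisphere came from an operated brain. Strain, age and sex of the fish are not given in the sources used here. The labels do not say whether the 3 hemispheres came from separate fish. The paper calls the 3 samples of a condition biological replicates and states that hemispheres were processed separately. The spread given below is the spread between these 3 libraries, which may be in part technical. The 3 libraries of injured hemispheres are not analysed here, and no test between groups was made.

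The telencephalon is the most anterior part of the brain. In teleosts its roof, the pallium, lies turned outward over the subpallium below it, and the ventricle opens at the surface between a thin covering and the tissue. Pallial projection neurons are mostly glutamatergic, and the subpallium produces most GABAergic neurons. Adult zebrafish keep radial glia along the ventricle. These cells carry out many tasks that astrocytes have in mammals, and some of them act as neural stem cells under the control of Notch signaling and produce neurons throughout life.

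The libraries held 59675791, 84610201 and 78812707 reads on 32520 genes, and the largest held 1.42 times the reads of the smallest. Levels are given as counts scaled to a common library total (CPM, reads of a gene per 1000000 reads on genes), so that 1 CPM stood for 59.7 to 84.6 reads. CPM is not corrected for the length of a transcript. It therefore compares 1 gene between hemispheres, while between genes it tells how many reads each took and not how many transcripts there were. A gene was taken as expressed when it reached 1 CPM in all 3 hemispheres, which 17047 genes did, or 52.4% of the annotated genes. Of these, 10384 genes, or 31.9% of the annotation, reached 10 CPM in all 3. Reads were found for 25339 genes in every hemisphere, and 4099 genes had no read in any. A gene without a read in a hemisphere could have been present there at up to 0.0355 to 0.0503 CPM, taking 3 reads as the limit that a count of 0 allows. Such limits cover counting error only.

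Most of the reads fell on genes with a mean between 10 and 1000 CPM. The 100 genes with the most reads took 17.7%, 18.0% and 17.8% of the reads of control replicates 1, 2 and 3, and the 1000 genes with the most reads took 49.7% in each. The 80 genes with a mean of 1000 CPM or more held 16.0% of the reads, the 2151 genes between 100 and 1000 CPM held 50.7%, and the 8478 genes between 10 and 100 CPM held 30.3%. The 10828 genes with reads but a mean under 1 CPM together took 0.224%. The 13 genes of the mitochondrial genome took 3.83%, 4.11% and 4.02%.

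Most genes differed little between hemispheres. The coefficient of variation (CV, the SD over 3 hemispheres divided by their mean) had a median of 6.15% over the expressed genes, with a 5th percentile of 1.37% and a 95th percentile of 23.8%. It fell with the level, from a median of 11.0% for genes between 1 and 10 CPM to 5.10% between 10 and 100 CPM and 3.45% between 100 and 1000 CPM. The counting error expected from the mean number of reads had a median of 6.10%, 2.18% and 0.876% in the same classes. The median CV was thus larger than this error in all 3 classes. The common biological coefficient of variation estimated with edgeR was 10.4%. Log2 CPM correlated across the expressed genes with Pearson's r of 0.993 to 0.994 between any 2 hemispheres. This is a description across genes, which are not independent replicates. The highest hemisphere had at least 1.5 times the CPM of the lowest for 1155 expressed genes, or 6.78%, and this share serves below as the background for every list. It depended on the level, with 14.4% of the expressed genes between 1 and 10 CPM, 2.63% between 10 and 100 CPM and 0.790% between 100 and 1000 CPM, so that a list of low genes is read against the first of these shares.

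**Figure D1:**
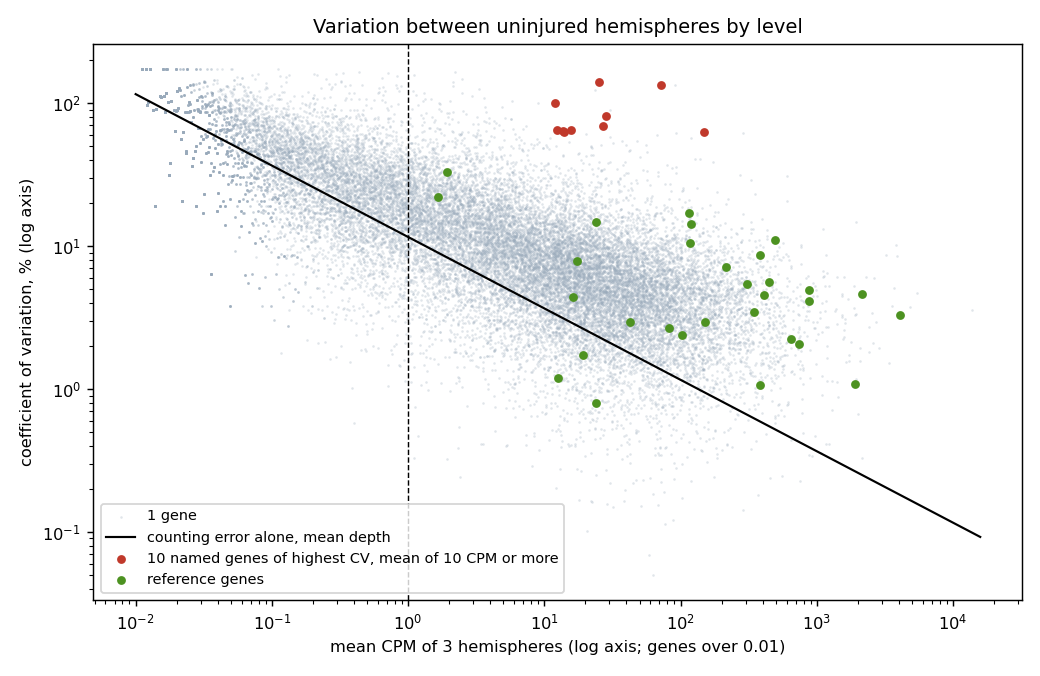
Coefficient of variation over the 3 uninjured hemispheres (vertical log axis, percent) against mean CPM (horizontal log axis), 1 grey point per gene with a mean over 0.01 CPM. The solid line is the spread that counting gives at the mean depth, the dashed line marks 1 CPM, green points are reference genes, and red points are the 10 named genes of highest CV among those with a mean of 10 CPM or more, which all lie at 62.6% or above.

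The genes with the most reads were those of respiration, synapses, the cytoskeleton and glia. Mitochondrially encoded subunits of cytochrome *c* oxidase led, with 13767, 14376 and 13404 CPM for *MT-CO1*, and 6 of the 25 leading genes belonged to the mitochondrial genome. The first nuclear gene was *actb2*, a cytoplasmic actin, with 3991, 4217 and 3977 CPM. It was followed by the long non-coding RNA *malat1* with 4292, 3756 and 3686 CPM and by *epd*, which codes for an ependymin, a secreted glycoprotein of the fish brain, with 3730, 4234 and 3468 CPM. The CV was 3.55% for *MT-CO1* and 3.31% for *actb2*, near the median of 3.16% for genes with a mean of 1000 CPM or more. It was 8.47% for *malat1* and 10.2% for *epd*, against a 95th percentile of 8.64% for such genes. Neuronal genes among the 25 were *atp1a3a*, the sodium pump subunit of neurons (3682, 3532 and 3410 CPM), *kif1aa*, a motor of synaptic vesicle precursors (2863, 2785 and 2892 CPM), and *clstn1*, a calsyntenin of the postsynaptic membrane (3415, 3405 and 3322 CPM). Others of this kind were *syt1a*, *snap25a*, *nell2b*, *ndrg4*, *rtn1a* and the NMDA receptor subunit *grin1a*. Among the 25 genes the spectrin gene *sptan1* varied most, with 1616, 2029 and 2161 CPM and the lowest value in replicate 1. The glial glutamate transporter *SLC1A2* (ENSDARG00000102453) and the aldolase gene *aldocb* were also among the 25. So were the calmodulin gene *calm3b*, the translation factor gene *eef1a1l1* and the chaperone gene *HSP90AB1*. The gene in the thirteenth place, ENSDARG00000098360, has no name in the tables used and is not described further.

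Names in capitals are those of the human counterpart, which the gene table gives for many zebrafish genes without telling duplicated genes apart. Where several genes carry a name, the gene identifier follows it. For this reason, a low value under a human name does not exclude that a duplicate without that name is expressed. *CYP19A1*, the aromatase gene and a marker of radial glia in fish, stood at 0.235, 0.343 and 0.698 CPM and the water channel gene *AQP4*, of the same list, at 0.385, 0.378 and 0.584 CPM, and in both cases only the gene that carries the name is meant. The marker lists held 360 genes of cell types, of which 263 were expressed (73.1%, against 52.4% of all genes). In a bulk sample, fewer cells of a type and less RNA per cell cannot be told apart.

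**Figure D2:**
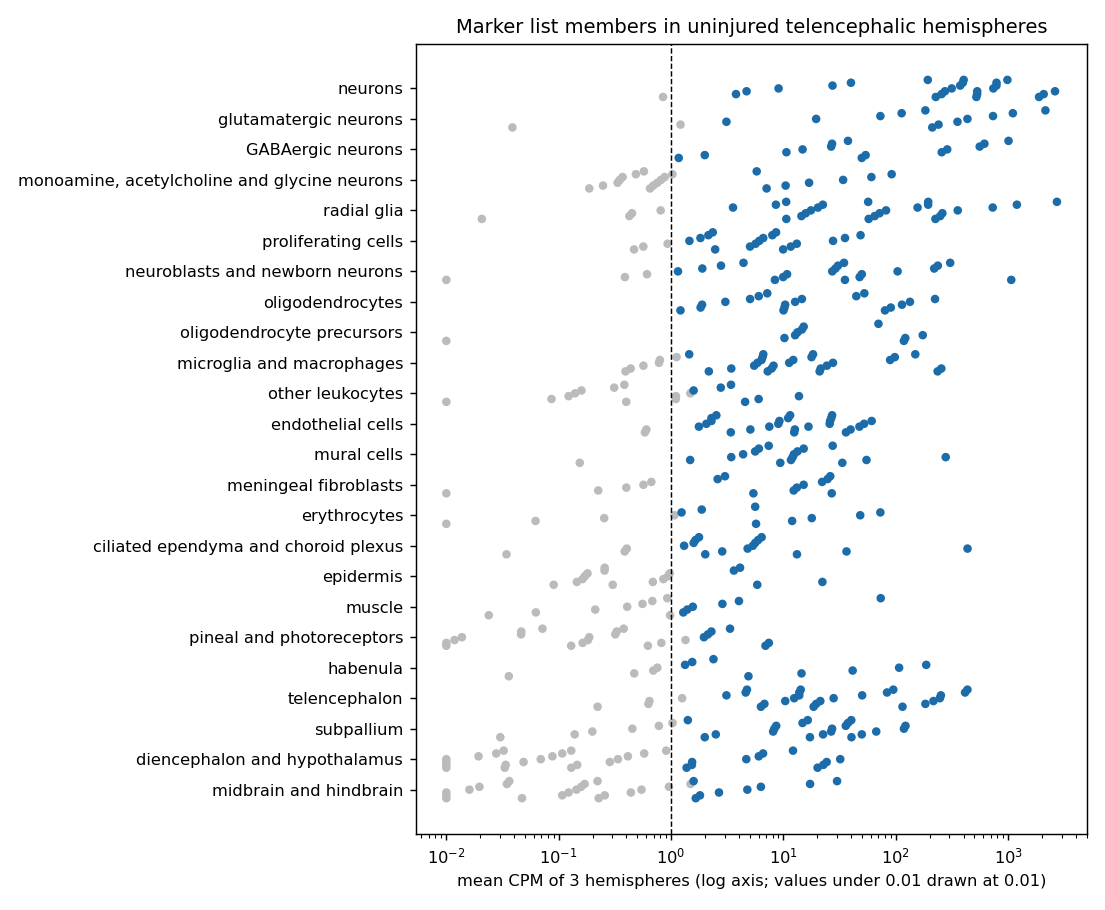
Mean CPM over the 3 uninjured hemispheres (horizontal log axis) for the members of each list of cell type markers and regional genes, 1 point per gene, with values under 0.01 CPM drawn at 0.01. Blue points are genes at 1 CPM or more in all 3 hemispheres and grey points are the others. Most members of the neuronal, glial and vascular lists lie right of the dashed line at 1 CPM, except for the list of monoamine, acetylcholine and glycine neurons with 7 of 20, while most members of the epidermal, photoreceptor, diencephalic and hindbrain lists lie left of it.

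Pan-neuronal markers were nearly all expressed. Of 24 pan-neuronal genes, 23 were expressed and 20 reached 10 CPM, with *nefmb*, a neurofilament gene, as the exception at 0.737, 0.981 and 0.825 CPM. Synaptotagmin (*syt1a*), which senses calcium at the synaptic vesicle, had 2563, 2590 and 2668 CPM. The vesicle protein gene *SV2A* had 1871, 1952 and 1814 CPM, and *ELAVL3*, an RNA-binding protein of postmitotic neurons, had 773, 784 and 797 CPM. None of the 23 expressed genes reached a ratio of 1.5 between hemispheres. Together they were the most even of the cell type lists apart from that of glutamatergic neurons, as the summed CPM of the list varied by 0.487% (CV).

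Both major transmitter classes of neurons were seen. Of 14 genes of glutamatergic neurons, 12 were expressed. The vesicular glutamate transporter gene *slc17a6a* had 741, 739 and 715 CPM and *SLC17A6* had 212, 212 and 208 CPM. A further transporter, *slc17a7a*, had 73.3, 69.5 and 75.6 CPM, whereas *SLC17A8* had at most 0.0827 CPM. *camk2a*, a kinase of excitatory synapses, stood at 1133, 1114 and 1049 CPM. All 14 genes of GABAergic neurons were expressed. *GAD2* and *GAD1* (ENSDARG00000027419), the enzymes that make GABA, had 1004, 1036 and 977 CPM and 558, 558 and 556 CPM. The vesicular GABA transporter gene *SLC32A1* had 284, 294 and 281 CPM. No member of the GABAergic list reached a ratio of 1.5, and in the glutamatergic list 1 member did, the second gene named *EOMES* (ENSDARG00000104243) at 2.04, 3.53 and 3.74 CPM.

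Of 20 genes that mark other transmitters 7 were expressed (35.0%, against 52.4% of all genes). This share depended on the cut-off, as 13 of the 20 reached 0.5 CPM in all 3 hemispheres, against 18595 of all 32520 genes. The 7 included *HDC*, the enzyme that makes histamine (63.7, 54.2 and 63.8 CPM), and *TH*, the first enzyme of catecholamine synthesis (14.3, 16.6 and 19.7 CPM). The dopamine transporter gene *SLC6A3* stood at 10.2, 10.2 and 11.0 CPM and the noradrenaline transporter gene *SLC6A2* at 36.6, 35.1 and 30.1 CPM. Below 1 CPM in all 3 hemispheres were *tph2*, which makes serotonin in neurons (0.218, 0.165 and 0.178 CPM), the serotonin transporter gene *SLC6A4* (0.654, 0.532 and 0.533 CPM) and *DBH*, which turns dopamine into noradrenaline (0.721, 0.544 and 0.685 CPM). *SLC6A5*, the transporter of glycinergic neurons, was likewise below 1 CPM, and the acetylcholine enzyme gene *CHAT* had 0.486, 1.19 and 0.952 CPM. The enzyme genes *tph2* and *DBH* thus took few reads in these hemispheres. Of the receptor genes for serotonin and noradrenaline, given below, about the same share was expressed as of all genes (52.4%).

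Radial glia were well represented, with 24 of 28 marker genes expressed and 20 at 10 CPM or more. Those that missed 1 CPM included *CYP19A1* and *AQP4*, given above, and the second gene named *SLC1A2* (ENSDARG00000052138), with at most 0.0503 CPM. The intermediate filament gene *gfap* had 68.2, 78.2 and 68.5 CPM, a mean of 71.6 ± 5.66 (SD, n = 3). The fatty acid binding protein gene *FABP7* (ENSDARG00000007697) had 334, 396 and 335 CPM, and *s100b*, a calcium-binding protein, had 176, 212 and 193 CPM. Glutamine synthetase, *GLUL* (ENSDARG00000099776), which turns the glutamate taken up by glia into glutamine, had 1179, 1215 and 1184 CPM. The gap junction gene *cx43* had 722, 748 and 712 CPM. The transcription factor genes *sox2* and *SOX9* stood at 78.0, 86.2 and 81.1 CPM and at 60.6, 65.6 and 68.0 CPM. Of the 24 expressed markers, 19 were highest in control replicate 2, against 35.5% of all expressed genes, but most of these differences were small and only 2 markers reached a ratio of 1.5. One of these was the second *FABP7* gene (ENSDARG00000034650), with 18.5, 24.8 and 9.31 CPM.

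Notch signaling keeps adult radial glia quiescent, and all 4 Notch receptor genes were expressed. *notch3*, which is also a gene of mural cells, had 263, 294 and 276 CPM, *notch1b* had 59.3, 60.0 and 58.2 CPM, *notch2* 47.7, 50.5 and 45.3 CPM, and *notch1a* 26.5, 28.4 and 27.3 CPM. None of them reached a ratio of 1.5. Of 26 genes of the HER and HEY family of bHLH repressors, many of which are Notch targets, 16 were expressed, with *her4.1* at 22.9, 24.7 and 19.7 CPM and *HEY1* at 25.6, 34.3 and 27.2 CPM. Of the 16 repressors, 4 reached the ratio of 1.5, but 10 of the 16 had a mean under 10 CPM, and 3 of the 4 were among these. *her4.4* had 13.10, 18.01 and 9.998 CPM, *her4.5* had 5.01, 6.35 and 4.15 CPM and *her2* had 1.59, 2.52 and 1.61 CPM, each highest in replicate 2, while *her4.3* was highest in replicate 3. The *her4* genes are near-identical copies in tandem, so that reads could have been split between them or dropped.

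Most of the listed genes of dividing cells were expressed, mainly at levels under 10 CPM. Of 20 such genes, 17 were expressed, against 52.4% of all genes, and 12 of these 17 had a mean under 10 CPM. In all 3 hemispheres 5 of the 20 reached 10 CPM, against 31.9% of all genes. The replication clamp gene *pcna* had 46.9, 48.6 and 50.1 CPM, the proliferation marker *mki67* 12.47, 14.81 and 12.13 CPM and the topoisomerase gene *top2a* 10.5, 12.6 and 11.7 CPM. The mitotic genes *CCNB2*, *BIRC5* and *plk1* missed 1 CPM in at least 1 hemisphere. *MCM7*, a subunit of the replicative helicase, was the only one to reach a ratio of 1.5, with 32.3, 28.7 and 44.8 CPM, and the other helicase subunits *mcm2* to *mcm6* stood between 4.54 and 10.3 CPM with their highest value in replicate 2. As in radial glia, 13 of the 17 expressed genes were highest in replicate 2.

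Of 22 genes listed for neuroblasts and newborn neurons 19 were expressed, and the entry *dcx* of the list matched no gene. *NEUROD1*, a proneural transcription factor gene, had 228, 232 and 248 CPM, *sox4a* (ENSDARG00000004588) had 201, 231 and 225 CPM, and *STMN1*, a stathmin that regulates microtubules, had 1032, 1098 and 1060 CPM. A second identifier with the name *sox4a* had no read. *SOX11* was lower in replicate 2, with 114, 74.6 and 122 CPM, whereas *sox11a* had 31.6, 39.0 and 33.1 CPM. The proneural gene *ascl1a*, which marks activated progenitors, had 11.24, 11.00 and 10.04 CPM. *neurog1* and *neurod4* were below 1 CPM in every hemisphere.

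Oligodendrocyte genes were present in all 3 hemispheres, with 19 of 19 expressed. Myelin basic protein (*mbpa*) had 263, 236 and 170 CPM, a mean of 223 ± 47.8, and the myelin-associated glycoprotein gene *mag* had 147, 130 and 123 CPM. The proteolipid gene *plp1b* had 52.6, 59.3 and 45.4 CPM and the myelin protein gene *mpz* 11.86, 12.04 and 7.131 CPM. The summed CPM of the list was 882, 855 and 726. Control replicate 3 was the lowest hemisphere for 16 of the 19 genes, against 34.8% of all expressed genes, and the highest for none. Of the 10 genes of oligodendrocyte precursors 9 were expressed, with *OLIG2* at 15.9, 13.9 and 13.9 CPM and *sox10* at 10.56, 10.01 and 10.02 CPM, and none reached a ratio of 1.5. *GPR17*, a receptor of mammalian precursors, had no read in any hemisphere.

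Genes of microglia and macrophages were expressed in 24 of 30 cases. The lipid carrier gene *apoeb* had 283, 258 and 221 CPM, and the MHC class II chaperone gene *cd74a* had 235, 222 and 248 CPM. *csf1ra*, the receptor for the growth factor on which microglia depend, had 28.4, 23.0 and 21.6 CPM. The leukocyte phosphatase gene *ptprc* had 19.5, 22.0 and 21.4 CPM. Of the 24 genes, 7 reached a ratio of 1.5, or 29.2%, and of these 5 belonged to the 11 genes with a mean under 10 CPM and 2 to the 13 above. Among them were *lcp1* (13.6, 22.5 and 17.3 CPM), *marco*, a scavenger receptor (10.5, 7.06 and 5.95 CPM), and *cd68* (12.3, 14.8 and 9.58 CPM). They did not share a direction, as *marco* was highest in replicate 1 and *lcp1* and *cd68* in replicate 2. *P2RY12*, a receptor of resting microglia, was near the limit, with 0.871, 1.41 and 1.08 CPM, and the complement genes *c1qa*, *c1qb* and *c1qc* stayed below 1 CPM. Of 17 genes of other leukocytes 6 were expressed. The neutrophil lysozyme gene *lyz* had no read, and the T cell kinase gene *lck* had 0.721, 1.26 and 1.32 CPM. The immunoglobulin heavy chain gene *ighm* had 0.570, 3.32 and 0.558 CPM and so stood out in replicate 2.

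Vessels were represented by 24 of 26 endothelial and 16 of 17 mural cell genes. The endothelial growth factor receptor gene *kdrl* had 60.4, 57.7 and 64.6 CPM, the blood-brain barrier transporter gene *mfsd2aa* had 41.7, 50.1 and 50.4 CPM and the efflux pump gene *abcb4* 51.0, 48.8 and 56.7 CPM. The tight junction gene *cldn5a* had 26.6, 25.7 and 25.6 CPM. *plvapa*, a gene of fenestrated vessels, was lower, with 6.33, 4.77 and 4.11 CPM, and *plvapb* stayed below 1 CPM. Pericytes express *pdgfrb*, which had 36.2, 34.7 and 29.2 CPM, and *abcc9*, a potassium channel subunit gene, with 53.1, 55.8 and 55.5 CPM. No mural cell gene reached a ratio of 1.5. Of 12 erythrocyte genes 8 were expressed, and the carbonic anhydrase gene *cahz* had 71.9, 79.1 and 67.3 CPM and the globin gene *hbaa1* 38.8, 49.7 and 56.1 CPM. Of the 8 genes, 7 were highest in replicate 2, against 35.5% of all expressed genes, *hbaa1* being the exception. None of the 8 reached a ratio of 1.5, but the 5 entries of the list that matched no gene were all beta globins. Outside the list, the globin gene *HBE1* (ENSDARG00000097238) had 38.5, 45.7 and 24.2 CPM, a ratio of 1.88.

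By the CV of their summed CPM, the least even cell type lists were those of epidermis (51.2%), meningeal fibroblasts (20.9%) and ciliated ependyma and choroid plexus (12.9%). By the median CV of single genes the order differed, and meningeal fibroblasts (11.2%) lay below other leukocytes (14.6%) and microglia and macrophages (13.1%). Epidermis was marked by only 4 expressed genes of 16, the keratin genes *krt91*, *krt5*, *krt15* and *krt4*, and all 4 were highest in replicate 1 and lowest in replicate 3. *krt91* had 32.8, 23.2 and 10.5 CPM, *krt5* 10.1, 5.03 and 2.44 CPM, and *krt4* 6.70, 2.60 and 1.56 CPM. The summed list had 62.5, 38.8 and 21.0 CPM, while the epithelial adhesion genes *epcam* and *cdh1* had at most 0.235 and 0.343 CPM. Of 15 genes of meningeal fibroblasts 10 were expressed and 4 reached a ratio of 1.5. The collagen I genes *COL1A1* (41.4, 17.3 and 19.5 CPM), *col1a2* (32.9, 14.9 and 18.4 CPM) and *col1a1a* (21.4, 6.37 and 9.17 CPM) were all highest in replicate 1, as was *POSTN* (ENSDARG00000043806) with 5.03, 2.48 and 1.54 CPM. The collagen V gene *col5a1* did not follow them and had 22.3, 23.8 and 27.9 CPM.

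The list of ciliated ependyma and choroid plexus had 14 expressed genes of 17, of which 10 were lowest in replicate 3. *OTX2*, a homeobox gene of the choroid plexus, had 6.95, 7.04 and 2.80 CPM, *foxj1a*, a regulator of motile cilia, had 5.36, 6.44 and 4.21 CPM, and *CLU*, clusterin, had 480, 451 and 372 CPM. Outside the list, *KCNJ13*, a potassium channel of epithelia, had 29.81, 27.72 and 9.998 CPM and *RPE65* (ENSDARG00000007480) had 14.1, 17.2 and 5.38 CPM. These 2 genes were chosen after their values were seen, and replicate 3 was the lowest for both. The 2 other genes named *RPE65* differed less, with 7.005, 8.770 and 6.408 CPM for ENSDARG00000054420 and 7.07, 8.38 and 6.83 CPM for ENSDARG00000094752. *TTR*, transthyretin, a defining gene of the choroid plexus in mammals, had 0.0168, 0.0355 and 0.0508 CPM.

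Of the other neighbouring tissues, pineal and photoreceptors (26.1%) and muscle (42.9%) had smaller shares of expressed genes than the 52.4% of all genes. Of 23 genes of pineal and photoreceptors 6 were expressed, among them *asmt2*, a gene of melatonin synthesis, with 6.80, 7.58 and 6.37 CPM. The cone opsin gene *opn1mw1* had no read and the photoreceptor regulator gene *crx* at most 0.0168 CPM. Of 14 muscle genes 6 were expressed, most of the reads being those of the tropomyosin gene *tpma*, which is also active outside muscle, with 74.7, 73.9 and 71.3 CPM. The muscle count depended on the cut-off, as 9 of the 14 genes reached 0.5 CPM in all 3 hemispheres, against 18595 of all 32520 genes. Of 12 habenular genes 8 were expressed (66.7%, against 52.4% of all genes), and 4 reached 10 CPM in all 3 hemispheres. The habenular markers *GPR151* and *kctd12.2* had at most 1.59 and 1.93 CPM and *POU4F1* at most 0.0508 CPM. Whether the reads of this list came from habenular tissue was not tested.

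The lists of telencephalon and subpallium had larger shares of expressed genes (85.7% and 76.9%) than all genes (52.4%). Those of diencephalon and hypothalamus (34.4%) and of midbrain and hindbrain (28.6%) had smaller ones. Of 28 telencephalic genes 24 were expressed, with a median CV of 5.49%. The pallial T-box genes *EOMES* (ENSDARG00000006640) and *TBR1* had 430, 386 and 483 CPM and 172, 185 and 192 CPM. The pallial homeobox genes *emx3*, *EMX2* and *EMX1* stood at 48.1, 51.9 and 50.3 CPM, at 13.3, 14.3 and 13.8 CPM and at 12.5, 12.3 and 12.5 CPM. Of 26 subpallial genes 20 were expressed. *DLX1* had 46.6, 51.4 and 51.2 CPM, *DLX5* 35.9, 37.8 and 38.6 CPM, and *SP9* 64.4, 66.5 and 69.8 CPM. The medial subpallial genes *LHX6* (ENSDARG00000006896) and *LHX8* had 21.8, 25.8 and 19.9 CPM, and 13.4, 15.1 and 15.8 CPM. *NKX2-1*, which is not among the 26 genes because the entry of the list matched no gene, had 24.3, 24.9 and 24.6 CPM. Pallium and subpallium were thus both read in every hemisphere, with close values.

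Of 28 genes of midbrain and hindbrain 8 were expressed and 2 reached 10 CPM. These 2, *egr2a* and *mafba*, also respond to activity or are active in myeloid cells, and *EN2*, *PAX2* and *PAX7* did not exceed 2 CPM. Of 48 HOX genes, which pattern the hindbrain and trunk, 2 were expressed (4.17%), and 11 had no read. None of 11 IRX genes reached 1 CPM in any hemisphere. Of 32 genes of diencephalon and hypothalamus 11 were expressed, and 5 reached 10 CPM in all 3 hemispheres. The other 21 missed 1 CPM in at least 1 hemisphere, including *rx3*, *BARHL1* and *GBX2*. Several of the 11 differed between the hemispheres. *OTP* (ENSDARG00000014201), which specifies neuroendocrine neurons, had 17.3, 25.8 and 29.5 CPM, its second copy had 3.69, 6.82 and 7.57 CPM, *SIM1* had 4.42, 7.13 and 8.18 CPM and *sim1b* had 1.09, 1.61 and 1.92 CPM. All 4 were lowest in replicate 1 and highest in replicate 3, and 8 of the 11 expressed genes of the list had their lowest value in replicate 1, against 37.0% of all expressed genes. This was not particular to the list, as 16 of the 24 expressed telencephalic genes, 12 of the 20 subpallial genes and 12 of the 19 genes of newborn neurons were also lowest there. In the diencephalic list 6 of the 11 genes had a mean under 10 CPM, and 3 of the 4 with a ratio of 1.5 were among them.

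Families of transcription factors differed in their share of expressed members. Of 473 genes in 29 families, 268 were expressed (56.7%, close to the 52.4% of all genes). All 13 genes of the SATB, CUX and ZEB group, all 12 FOS and JUN genes, all 6 MEF2 genes, all 5 EGR genes and all 4 NFI genes were expressed, while LIM homeobox, PAX, GATA, NKX, HOX and IRX genes were expressed in 35.0% of cases or fewer. The transcription factor genes with the most reads were *EOMES*, *BHLHE22* (383, 352 and 407 CPM), *mef2d* (361, 362 and 368 CPM), *NFIX* (372, 354 and 339 CPM), *myt1la* (315, 310 and 288 CPM), *ZEB2* (274, 272 and 269 CPM) and *bcl11ba* (247, 256 and 252 CPM). *foxo3a*, *NEUROD6* (ENSDARG00000040008) and *SOX5* completed the first 10. Most of these genes regulate the differentiation of neurons. *ZEB2* and *mef2d* had a CV of 0.882% and 0.935%. Of the 268 expressed factors, 24 reached a ratio of 1.5 (8.96%, against 6.78% of all genes).

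**Figure D3:**
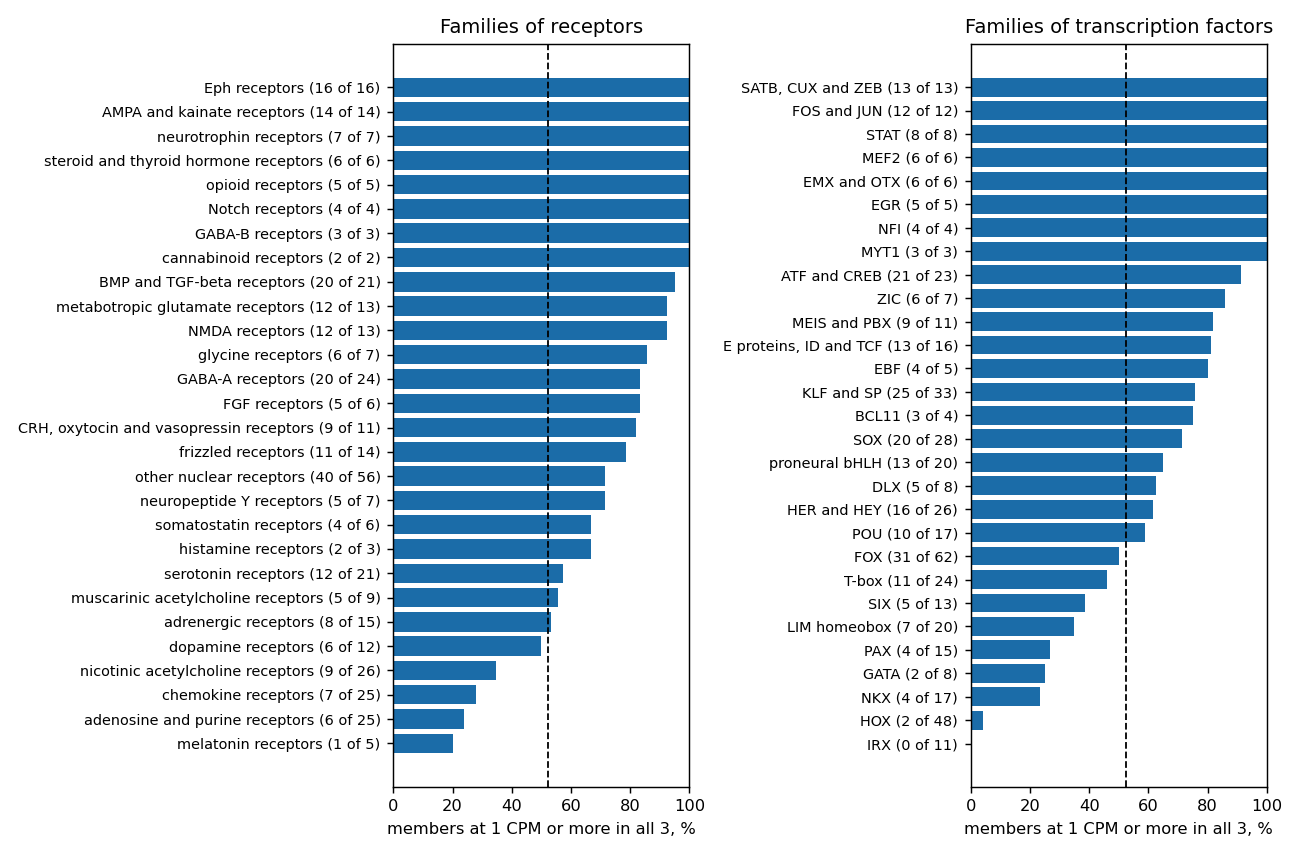
Share of members at 1 CPM or more in all 3 uninjured hemispheres (horizontal axis, percent) for families of receptors (left) and of transcription factors (right), with the number of expressed members of all members after each name. The dashed line marks the 52.4% of all annotated genes. Glutamate, GABA, Eph and growth factor receptors lie right of it, and chemokine, purine and melatonin receptors and the HOX and IRX families lie left of it. With a cut-off of 0.5 CPM, 14 of 25 chemokine, 11 of 25 purine and 4 of 5 melatonin receptor genes were counted. The same cut-off gave 3 of 48 HOX genes, 0 of 11 IRX genes and 18595 of all 32520 genes.

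Receptor families were described by the RNA of their genes, and no receptor protein or response to a signal was measured. Of 376 receptor genes in 28 families, 257 were expressed (68.4%, against 52.4% of all genes), and 13 of these reached a ratio of 1.5 (5.06%). Ionotropic glutamate receptors took the most reads. All 14 AMPA and kainate receptor genes were expressed, led by *gria2b* with 1718, 1747 and 1694 CPM, and 12 of 13 NMDA receptor genes, led by the obligatory subunit *grin1a* with 2133, 2147 and 2144 CPM and *grin2bb* with 890, 868 and 838 CPM. Of 13 metabotropic glutamate receptor genes 12 were expressed, with *grm5a* at 813, 758 and 816 CPM. *GRM2* (ENSDARG00000007195) was the only one with a ratio of 1.5, at 55.1, 94.5 and 55.8 CPM. Of 24 GABA-A receptor genes 20 were expressed, with *gabrb2a* at 204, 203 and 192 CPM, and the GABA-B receptor gene *gabbr1b* had 403, 394 and 383 CPM. The list of 7 glycine receptor genes had 6 expressed members.

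Receptors of neuromodulators followed with lower values. The histamine autoreceptor gene *hrh3* had 298, 276 and 304 CPM and the cannabinoid receptor gene *CNR1* had 362, 300 and 335 CPM. Of 26 nicotinic receptor genes 9 were expressed, with *CHRNB2* at 100, 107 and 105 CPM, and of 9 muscarinic genes 5, with *CHRM4* at 78.7, 68.0 and 77.1 CPM. Of 12 dopamine receptor genes 6 were expressed, with *drd4-rs* at 50.7, 53.0 and 47.4 CPM and *DRD1* at 4.26, 5.12 and 4.72 CPM. Serotonin receptor genes were expressed in 12 of 21 cases, with *HTR4* at 13.2, 14.9 and 13.1 CPM and *htr1b* at 13.3, 13.2 and 13.2 CPM. Adrenergic receptor genes were expressed in 8 of 15 cases, with *adra1ba* at 69.9, 65.9 and 65.7 CPM. In the families of amine receptors, the members with a ratio of 1.5 were *ADRB1* (3.20, 2.21 and 1.52 CPM), *ADRA1A* (3.95, 3.05 and 2.47 CPM) and *htr2cl1* (4.69, 5.05 and 3.31 CPM), each lowest in replicate 3. Among nicotinic receptors they were *CHRNB3* (ENSDARG00000052764, with 9.67, 6.68 and 5.86 CPM) and *chrna7a* (4.44, 3.43 and 2.60 CPM), again lowest in replicate 3.

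Most receptor genes of growth factors and ephrins were expressed. All 16 Eph receptor genes were expressed, with *EPHA4* (ENSDARG00000054454), a receptor for ephrins, at 308, 290 and 296 CPM. All 7 neurotrophin receptor genes were expressed, led by *NTRK2*, the receptor for BDNF, with 443, 464 and 480 CPM. Of 21 BMP and TGF-beta receptor genes 20 were expressed, led by the activin receptor gene *acvr2aa* with 319, 330 and 356 CPM. Of 6 FGF receptor genes 5 were expressed, with *FGFR2* at 94.9, 103 and 89.5 CPM, and of 14 frizzled genes, receptors of Wnt ligands, 11 were expressed and 5 reached 10 CPM. Among nuclear receptors, *NR2F2* had 421, 414 and 403 CPM and the clock gene *nr1d2b* 408, 419 and 375 CPM. All 6 genes found by name as steroid and thyroid hormone receptors were expressed, and such receptors under other names are not counted. The glucocorticoid receptor gene *NR3C1* was low in replicate 3, with 27.1, 30.0 and 16.9 CPM. Chemokine receptor genes were expressed in 7 of 25 cases, with *cxcr4b* at 4.47, 4.30 and 4.52 CPM, and purine and adenosine receptor genes in 6 of 25. With a cut-off of 0.5 CPM these counts were 14 and 11.

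Neuropeptide precursors combined genes of many reads with genes near 0. Of 69 precursor genes 36 were expressed (52.2%, about the share of 52.4% of all genes), 18 reached 10 CPM, and 3, *sst2*, *tac4* and *agrp*, had no read. The secretogranin gene *scg2b*, a component of dense-core vesicles, had 1771, 1763 and 1833 CPM. *adcyap1b*, the precursor of the peptide PACAP, had 1555, 1469 and 1556 CPM, whereas the gene named *ADCYAP1* had 0.151, 0.177 and 0.140 CPM. Neuropeptide Y (*npy*) stood at 238, 216 and 239 CPM, somatostatin (*sst1.1*) at 176, 159 and 182 CPM and the enkephalin precursor *PENK* at 81.1, 84.4 and 87.5 CPM. Several peptides known from hypothalamic neurons had few reads. *POMC* had at most 0.0381 CPM, *HCRT*, the hypocretin precursor, at most 0.152 CPM and *PMCH* at most 0.0503 CPM. Apart from these, the precursor gene *kiss1* had at most 0.0168 CPM.

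The precursor of oxytocin, made by neurons of the preoptic area, differed most between the hemispheres among the expressed precursors. *oxt* had 124, 264 and 476 CPM, a mean of 288 ± 178 and a ratio of 3.85 between the highest and the lowest hemisphere. *avp*, the vasotocin precursor of the same area, had 3.38, 8.95 and 11.5 CPM, and *sst1.2* had 4.06, 6.05 and 10.5 CPM. All 3 were lowest in replicate 1 and highest in replicate 3, as the *OTP* and *SIM1* genes were. The other members with a ratio of 1.5 were *npffl*, highest in replicate 1 with 13.9, 7.62 and 8.29 CPM, and *CCK*, lowest in replicate 3 with 4.19, 4.68 and 2.68 CPM. The list of diencephalon and hypothalamus, which includes the *OTP* and *SIM1* genes, had a summed CPM of 120, 140 and 149. The part of that tissue in these differences was not tested. In the remaining 31 expressed precursors the hemispheres stayed within a ratio of 1.5.

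**Figure D4:**
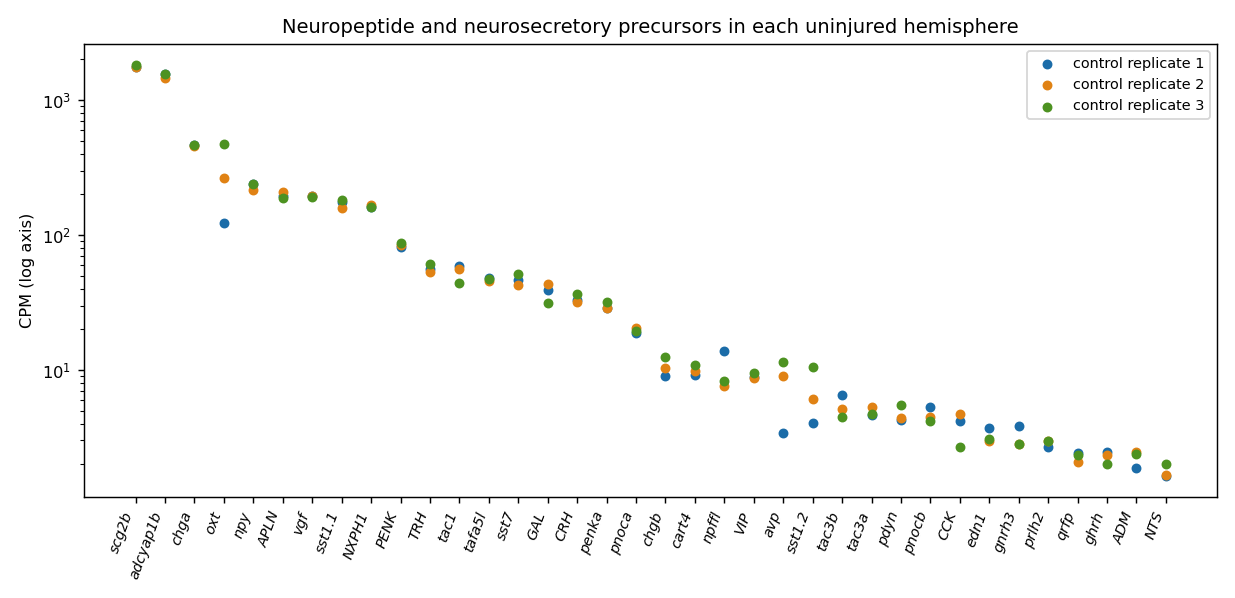
CPM (vertical log axis) of the 36 expressed neuropeptide and neurosecretory precursor genes in each uninjured hemisphere, 1 colour per control replicate, ordered by mean. For most genes the 3 points overlap, while *oxt*, *avp* and *sst1.2* are lowest in replicate 1 and highest in replicate 3.

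Receptors for these peptides were read as well. All 5 opioid receptor genes were expressed at 10 CPM or more, among them the nociceptin receptor gene *OPRL1* with 41.3, 42.1 and 38.9 CPM and the mu receptor gene *OPRM1* with 20.8, 19.9 and 21.4 CPM. Of 6 somatostatin receptor genes 4 were expressed, with *sstr1b* at 35.9, 35.9 and 39.8 CPM, and of 7 neuropeptide Y receptor genes 5, with *npy8ar* at 41.2, 43.4 and 40.0 CPM. The receptor of corticotropin-releasing hormone, *CRHR1*, had 74.1, 67.4 and 63.8 CPM, and its ligand gene *CRH* 32.8, 32.0 and 36.6 CPM. The 2 genes named *OXTR*, receptors of oxytocin, were low. ENSDARG00000033956 had 1.56, 1.80 and 2.04 CPM, in the same order as *oxt*, and ENSDARG00000044175 had 1.54, 1.29 and 1.27 CPM, in the reverse order, both within a ratio of 1.5.

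All 30 reference genes, which serve to normalize measurements by qRT-PCR, were expressed, with a median CV of 4.47%. *TBP* had 23.8, 24.1 and 23.8 CPM (CV 0.800%), *gapdhs* 1893, 1918 and 1877 CPM (CV 1.09%) and *HPRT1* 19.3, 19.0 and 19.6 CPM. The expected counting error had a median of 2.18% between 10 and 100 CPM, so the low CV of *TBP* does not set this gene apart. The ribosomal protein gene *RPS18* had 201, 213 and 232 CPM, the beta-actin gene *actb1* 493, 545 and 436 CPM and *b2m*, a subunit of MHC class I, 100, 138 and 110 CPM. *GAPDH* was the only one to reach a ratio of 1.5, with 1.42, 2.66 and 1.75 CPM. The 10 named genes with the lowest CV among the 10460 named genes with a mean of 10 CPM or more were *EIF2S1*, *PLCL2*, *ecm1b*, *tbcela*, *PPM1A* (ENSDARG00000043250), *AP2M1*, *MYCN*, *TRAPPC8*, *ETFA* and *GMPPB*. For example, *EIF2S1* (ENSDARG00000052178), a subunit of a translation initiation factor, had 63.2 CPM in each hemisphere, and *AP2M1*, a clathrin adaptor subunit, had 288, 287 and 288 CPM. These CVs lie below the spread that counting gives, so their order says nothing about the genes.

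At the other end, 28 named genes with a mean of 10 CPM or more had a CV above 50%. The 10 with the highest CV were *rn7sl1*, *zgc:158463*, *KLHL41*, *LOXL2*, *lgals9l1*, *si:ch211-163m17.5*, *col1a1a*, *nfkbib*, *si:ch211-281l24.3* and *FOS*. *rn7sl1*, the RNA of the signal recognition particle, had 66.1, 1.54 and 7.75 CPM. *zgc:158463* behaved likewise, with 185, 10.6 and 21.8 CPM, so that both stood out in replicate 1. *KLHL41* (ENSDARG00000006757), a gene of muscle, was nearly absent from replicate 1 with 0.201, 24.5 and 11.5 CPM. *LOXL2*, a lysyl oxidase that crosslinks collagen, had 19.9, 10.7 and 54.2 CPM and was highest in replicate 3, whereas *lgals9l1*, a galectin gene, was highest in replicate 2 with 18.2, 48.5 and 14.1 CPM. *nfkbib*, an inhibitor of NF-kappaB, had 7.04, 23.5 and 10.3 CPM, and *si:ch211-281l24.3* had 199, 206 and 41.2 CPM with the low value in replicate 3. No hemisphere was the outlier for all of these genes.

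Some genes that respond to neuronal activity also differed between the hemispheres, and no list of such genes was used. *FOS*, a transcription factor gene induced within minutes of neuronal activity, had 9.65, 23.9 and 8.16 CPM. *egr4* had 45.6, 88.7 and 34.3 CPM and *NPAS4* (ENSDARG00000055752) had 147, 250 and 124 CPM. *BTG2*, chosen together with *NPAS4* after its values were seen, had 33.6, 65.7 and 28.5 CPM. These 4, which were named for their spread, were highest in replicate 2. *egr1* differed from them, with 41.3, 65.4 and 71.8 CPM, and *EGR3* (113, 98.9 and 104 CPM), *FOSB* (38.1, 27.3 and 26.7 CPM) and the second *NPAS4* gene (40.0, 44.2 and 45.4 CPM) were not highest in replicate 2. Of the 12 FOS and JUN genes, 6 were highest in replicate 1, 5 in replicate 2 and 1 in replicate 3, and 2 reached a ratio of 1.5. Of the 5 EGR genes, 3 were highest in replicate 2 and 3 reached that ratio.

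**Figure D5:**
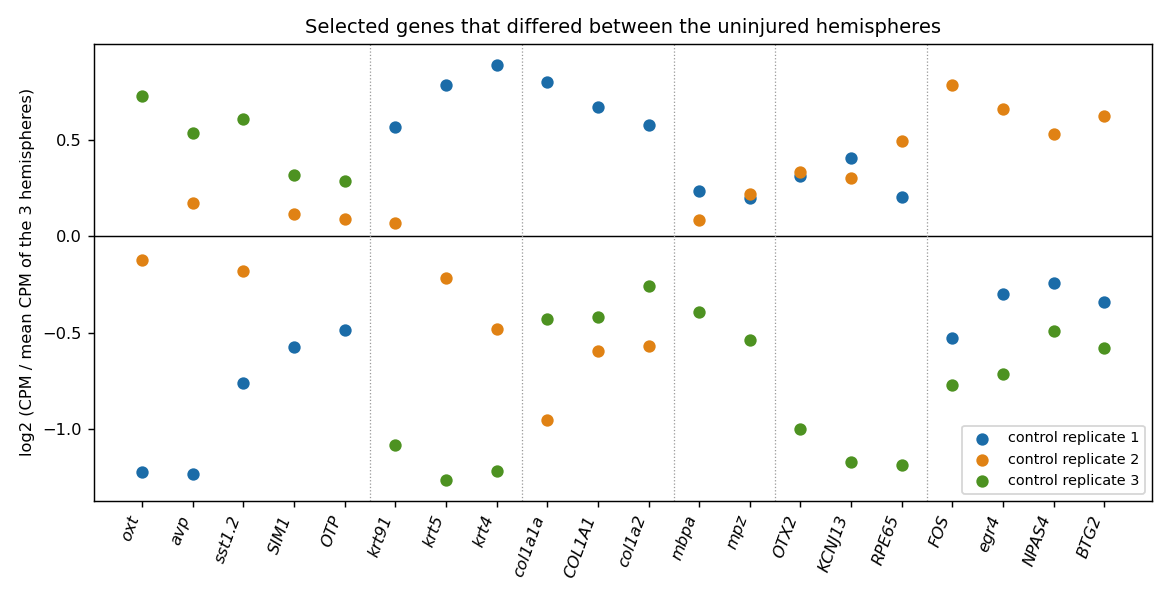
Log2 of the CPM in each uninjured hemisphere over the mean of the 3 (vertical axis) for 20 genes chosen after their values were seen, 1 colour per control replicate. Dotted lines separate peptide precursors with diencephalic factors, keratins, collagens, myelin genes, genes low in replicate 3 and 4 genes that respond to activity. Replicate 1 is low for the first group and high for keratins and collagens, replicate 2 is high for *FOS*, *egr4*, *NPAS4* and *BTG2*, and replicate 3 is high for the first group and low for keratins, myelin genes, *OTX2*, *KCNJ13* and the *RPE65* gene of the highest mean.

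Counted over all 17047 expressed genes, replicate 1 was at least 1.5 times above both other hemispheres for 108 genes and correspondingly below both for 146. These counts were 88 and 43 for replicate 2 and 46 and 164 for replicate 3. Each hemisphere was thus set apart from both others in a small part of the genes, all of them expressed in all 3. Replicate 2, the library with the most reads, had the fewest such genes in both directions together. These counts were not split by level, but of the 1155 genes with a ratio of 1.5 between highest and lowest, 915 had a mean between 1 and 10 CPM. The share of reads on no annotated gene was close in the 3 libraries, at 29.5%, 29.7% and 29.0%. The part of sequencing depth in these counts was not tested.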

How the data were processed

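Polyadenylated RNA of 3 uninjured telencephalic hemispheres was sequenced as 1 library each. Per the labels and the methods of the study, the authors aligned reads with STAR to the GRCz11 assembly, and the deposited values are HTSeq counts per gene that were not normalized. Tool versions, the strand setting and the annotation release are not given in the sources used here, so reads of overlapping or antisense genes cannot be told apart. Reads without a gene (29.0% to 29.7%) or with several (1.45% to 1.52%) were left out. Counts were divided by the total on genes and scaled to CPM in Python 3.11.15 with pandas 2.3.3. TMM factors and the common biological coefficient of variation came from edgeR 4.0.16, size factors from DESeq2 1.42.0, in R 4.3.3, and the steps were tested on simulated data. Precision is limited by 59675791 to 84610201 reads on genes per library.

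Of 32520 genes, 29280 had a name in the gene table or in the supplementary tables. Of 600 list entries 554 matched, 127 of them only after a final a or b was dropped, and these may be a duplicate of the gene meant. Families were taken by name. Named were the 25 genes with the most reads, up to 5 leading members and the defining low members of each list and family, 10 leading factors and receptors, the 10 named genes with the highest and the lowest CV above a mean of 10 CPM, and the reference genes. Further genes were named where the hemispheres differed. The lists and genes were chosen with earlier results of these data known. No sequences are printed. Some genes named by the rule above are not reported here.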

Additional observations from a re-analysis of the deposited data

How the results depend on the processing

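The count of expressed genes was 18595 at a minimum of 0.5 CPM, 15323 at 2 CPM and 10384 at 10 CPM, against 17047 at 1 CPM, 17593 with a mean of at least 1 CPM and 17041 with TMM factors. With each hemisphere left out it ranged from 17150 to 17271. A minimum of 10 CPM lowered the expressed genes of all marker lists from 381 to 231 and those of the receptor and transcription factor families from 525 to 323, and a minimum of 0.5 CPM raised them to 422 and 580. The median CV was 11.7% without a filter on low values and 4.58% for genes at 10 CPM or more, against 6.15%, which TMM factors (6.14%) and DESeq2 size factors (6.15%) left as it was. It ranged from 4.69% to 5.29% when 1 hemisphere was left out, as an SD of 2 values has a lower median than an SD of 3. The common biological coefficient of variation then ranged from 10.03% to 11.03%. The 100 genes with the most reads took 15.3% of the reads without mitochondrial genes, against 17.8%. The count of genes with a ratio of 1.5 was 1138 and 1135 with the other scalings and 557 to 669 between 2 hemispheres, alternatives that were added after the data were seen. Of the 15 single genes followed, *col1a1a* moved by over 1.5 times, from a mean of 12.3 CPM to 7.77 CPM without replicate 1, and *oxt* had 288 CPM with all hemispheres and 194 CPM without replicate 3. A minimum in TPM was not run, as no transcript lengths were used here. No paired analysis was possible because only 1 group was described and no test was made. Depth limits the lowest values, since genes with a mean under 1 CPM had a median counting error of 39.7%.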

Other observations

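Several further genes outside the lists differed between the uninjured hemispheres, and they are given as values chosen after they were seen. The gene *mt-atp8*, a subunit of ATP synthase encoded in the mitochondrial genome, had 114, 100 and 205 CPM and was highest in control replicate 3. The neighbouring subunit gene *MT-ATP6*, with 2893, 3286 and 3428 CPM, was highest there as well. Reads that fell on several genes were left out, and the effect of this on these 2 neighbours was not tested. The RNA-binding protein genes *NONO* and *tia1l* were low in replicate 1, with 13.9, 46.7 and 50.2 CPM and with 19.1, 52.6 and 52.8 CPM. A further gene of this kind, *hnrnpa0a*, was low in replicate 3 instead, with 70.1, 73.1 and 26.8 CPM. The genes *otoa* (193, 58.6 and 104 CPM), *armc9* (76.9, 26.9 and 39.2 CPM) and *znf1179* (158, 56.0 and 63.7 CPM) were high in replicate 1. The MHC class I gene *mhc1uba* was highest in replicate 2 with 50.04, 113.6 and 39.07 CPM, whereas *mhc1lca*, of the same class, was lowest there with 29.1, 18.4 and 21.3 CPM. The integrin gene *itgam.1* had 22.0, 51.4 and 43.8 CPM and was low in replicate 1.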
